A study of Homo sapiens and Mus musculus with 56 samples.

Results

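The genes described here are 10 mouse genes of the stroma in human glioblastoma xenografts: the MHC class II chains H2-Aa, H2-Ab1 and H2-Eb1, the invariant chain gene Cd74, the peptide exchange chains H2-DMa and H2-DMb1, the class II transactivator Ciita, and the dendritic cell genes Clec9a, Xcr1 and Flt3. They were taken by name from a list, and 9 of the 10 were measured by a probe set that names the gene alone, among 19938 mouse genes measured that way. The single probe set for H2-DMb1 also names H2-DMb2, so its values belong to both genes and are given apart.

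The RNA came from tumours that 5 human glioblastoma lines (SF295, U118, U251M2, DBM2 and U87M2) formed in the flank of nude mice after injection of 500000 cells. The mice received V-4084, a small molecule that the labels call selective for the MET receptor kinase, at 30 mg/kg for 7 days, or its vehicle, methylcellulose with Tween. Each V-4084 group held 3 mouse arrays except U251M2 with 2, and each vehicle group held 3 except SF295 with 2, 28 arrays in all; another 28 human arrays, labelled cultured cells, carried the same lines and treatments. The sources used here do not give the strain, sex or age of the mice. Nude mice lack a normal thymus and so most mature T cells, while their dendritic cells and macrophages are present, and a line implanted in the flank grows outside the brain although the tissue label reads brain tumour. No label says that repeats were separate animals, so the p-values below measure the spread between arrays, whose small number limits precision.

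MHC class II molecules show peptides from the endosome to CD4 T cells. The alpha and beta chains (H2-Aa with H2-Ab1, H2-Ea with H2-Eb1) assemble in the endoplasmic reticulum around the invariant chain Cd74, and H2-DM later takes out its last fragment so that peptides can bind. Ciita does not touch DNA itself; it is recruited by the factors bound to the X and Y boxes of class II promoters, and interferon gamma induces it in macrophages and many other cells. Clec9a, a receptor for dead cells, and Xcr1, the receptor of the chemokine Xcl1, mark the conventional dendritic cells specialised in cross-presentation, and Flt3 is the growth factor receptor on which dendritic precursors depend.

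Values are the deposited log2 signals, normalised by robust multi-array averaging (RMA), and a difference of 1 is a doubling. Cd74 ranged between 9.74 and 12.23 on the 28 mouse arrays and H2-Aa between 8.33 and 11.56, and the 5 class II genes H2-Aa, H2-Ab1, H2-Eb1, Cd74 and H2-DMa were above the median of all gene values (6.49) on 28 of 28 arrays. Ciita was above it on 22, Flt3 on 19, Xcr1 on 10 and Clec9a on 4, so the dendritic genes were read close to or below the middle of the array's range. In a bulk tumour, fewer cells of a type and less RNA per cell cannot be told apart.

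Arrays differed in genes of muscle and skin. The mean of 10 skeletal muscle genes was highest in DBM2 V-4084 repeat 2 (10.30), U118 vehicle repeat 2 (10.27) and U118 V-4084 repeat 2 (9.94), followed by DBM2 vehicle repeat 3 (9.44) and U118 vehicle repeats 1 (9.08) and 3 (8.91), against 6.35 on the lowest array, so muscle values formed no separate group; the mean of 7 keratinocyte genes was 8.35 in SF295 V-4084 repeat 1, against 5.74 to 6.15 on the other 27 arrays. The nearest array in overall profile was of the same line for 28 of 28 mouse arrays. Results are also given without the 3 arrays highest in muscle genes and the 1 highest in keratinocyte genes, a choice made after seeing the data, and the 24 arrays kept still include high muscle values.

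Vehicle tumours of the 5 lines differed widely in host class II RNA. In limma with Benjamini-Hochberg adjustment over all 19938 genes, 9 of 9 members differed between the vehicle lines at an adjusted p under 0.05, where 54.3% of all genes did, so the count itself is not particular to these genes. The members' median span between the highest and the lowest line was 1.44, against 0.39 for all genes, and H2-Aa spanned 2.19, or 4.58-fold. Wide spans were not particular to the members either. The median was 1.72 for 16 macrophage and monocyte genes and 2.19 for 10 skeletal muscle genes, while the other lists had narrower medians than the members.

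H2-Aa, the alpha chain of I-A, had 10.53 and 10.74 in SF295 vehicle tumours, 10.93, 9.73 and 10.76 in U118, 9.62, 9.98 and 9.62 in U251M2, 8.42, 8.85 and 8.70 in DBM2, and 8.37, 8.61 and 8.33 in U87M2 (adjusted p = 6.55e-08). SF295 and U118 were high, U251M2 lay between, and no array of DBM2 or U87M2 reached the lowest array of the other 3 lines. Its beta chain partner H2-Ab1 had the same high and low lines, with means of 10.24 in SF295, 9.99 in U118, 9.74 in U251M2, 8.66 in U87M2 and 8.61 in DBM2 (adjusted p = 1.31e-05). The beta chain of I-E, H2-Eb1, averaged 9.97 in SF295, 9.82 in U118, 9.53 in U251M2, 8.61 in DBM2 and 8.53 in U87M2 (adjusted p = 5.76e-05).

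Cd74, the invariant chain, had 11.34 and 11.58 in SF295 vehicle tumours, 11.05, 11.24 and 11.002 in U251M2, 11.20, 10.30 and 11.20 in U118, 9.74, 10.29 and 10.09 in DBM2, and 9.92, 9.80 and 9.82 in U87M2 (adjusted p = 7.58e-06). U118 repeat 2, the vehicle array with the highest muscle mean, lay well under the other U118 vehicle arrays and next to the highest DBM2 vehicle array. The other arrays highest in muscle genes, both from V-4084 tumours, went either way. Cd74 was 10.35 in DBM2 repeat 2, the highest of its group, and 11.15 in U118 repeat 2, the lowest of its group. A relation to muscle RNA was not tested. H2-DMa, which with its beta chain edits the peptides on class II, averaged 8.57 in SF295, 8.16 in U118, 7.71 in U251M2, 7.32 in U87M2 and 6.98 in DBM2 (adjusted p = 8.67e-06). The probe set shared by H2-DMb1 and H2-DMb2 averaged 8.55 in SF295, 8.28 in U118, 7.73 in U251M2, 7.20 in U87M2 and 7.17 in DBM2, and passed the test where probe sets naming several genes were kept (adjusted p = 8.19e-06). Ciita, the transactivator, moved least of the class II genes, with 7.06 in SF295, 6.91 in U251M2, 6.90 in U118, 6.58 in U87M2 and 6.44 in DBM2; its adjusted p of 0.046 passed under 17 of 44 other settings, with adjusted p between 0.000912 and 0.226.

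The dendritic genes had another order, led by U118. Clec9a had 6.56, 5.84 and 6.13 in U118 vehicle tumours, 5.16, 5.46 and 5.35 in U251M2, 5.04, 5.26 and 5.09 in DBM2, 4.97 and 5.28 in SF295, and 4.52, 5.15 and 5.17 in U87M2 (adjusted p = 6.18e-05). Every U118 array lay above every array of the other lines, and the 4 other lines overlapped; without the U118 line the adjusted p was 0.328. Xcr1 averaged 7.03 in U118, 6.36 in SF295, 6.27 in U251M2, 6.24 in U87M2 and 5.91 in DBM2 (adjusted p = 1.41e-05). Flt3 averaged 6.92 in U118, 6.69 in U251M2, 6.61 in SF295, 6.44 in U87M2 and 6.32 in DBM2 (adjusted p = 0.00314), a span of 0.60.

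**Figure D1:**
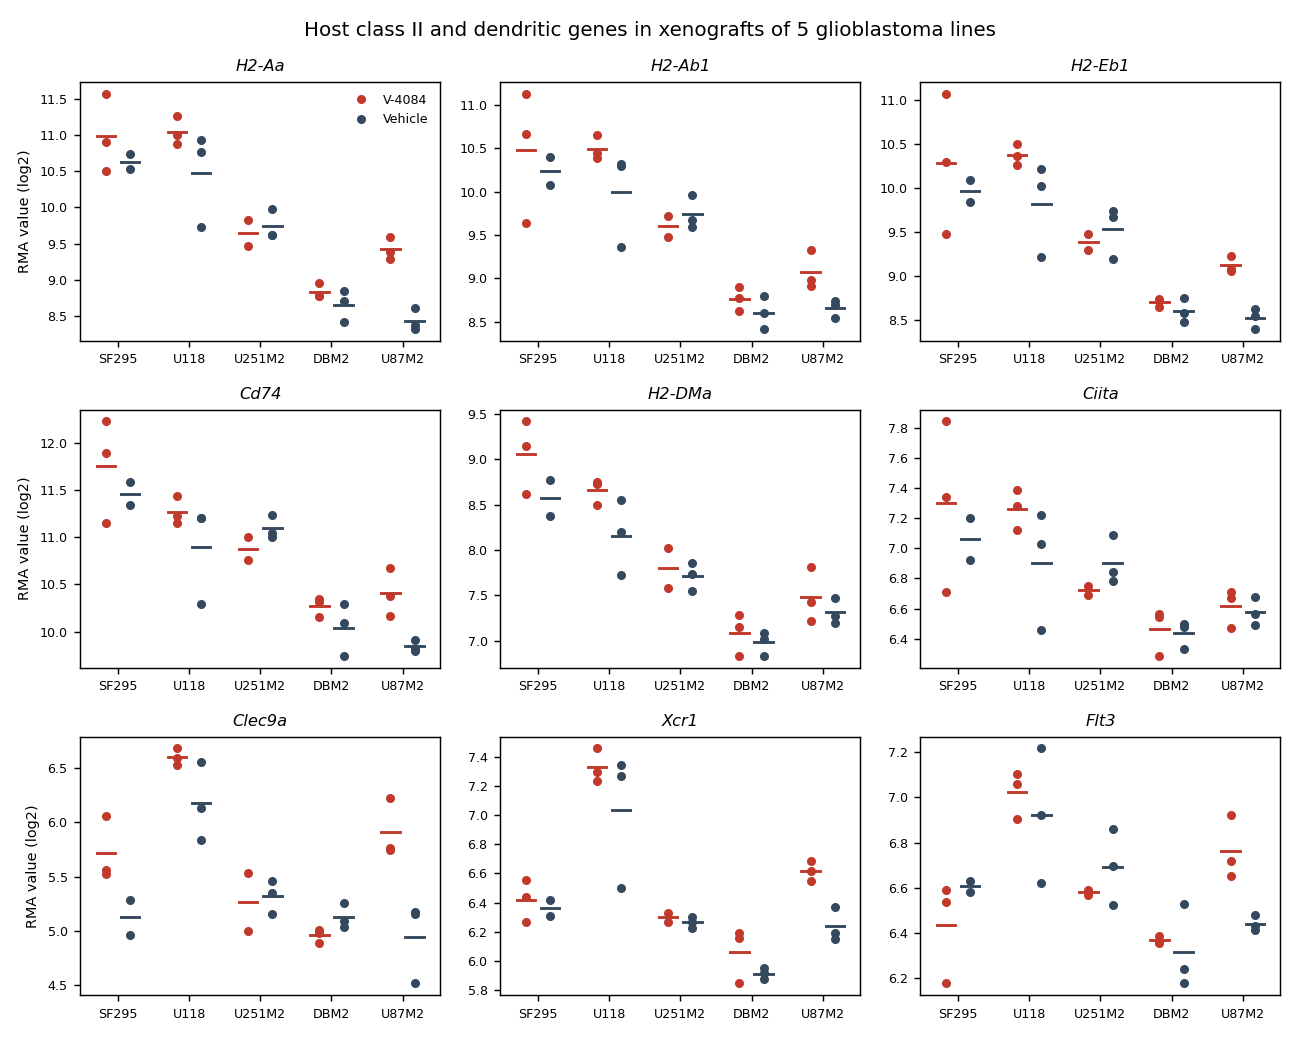
RMA values (log2) of the 9 members on each mouse array (points), with group means (bars), for V-4084 tumours (red, left) and vehicle tumours (dark, right) of each line; the vertical axes differ and do not start at 0. Among vehicle tumours the class II genes are highest in SF295 and lowest in DBM2 or U87M2, Clec9a and Xcr1 are highest in U118, and in U87M2 the V-4084 arrays of H2-Aa and Clec9a lie above the vehicle arrays.

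Between single pairs of vehicle lines, 44 of the 90 member comparisons passed, but of the 36 between lines next to each other in a gene's own order only 7 did. U118 differed from SF295 in 2 of 9 members, both dendritic. Clec9a was higher in U118 by 1.05 (SE 0.21, adjusted p = 0.0018) and Xcr1 by 0.67 (SE 0.16, adjusted p = 0.00816), while Flt3 (0.31, adjusted p = 0.214) and the 6 class II genes did not pass and H2-Aa differed by 0.16 in favour of SF295 (95% interval -0.37 to 0.69); 7.01% of all genes passed in this pair. Of the other 9 genes of the first type of conventional dendritic cell, 1 was called higher in SF295 and 0 in U118, and the dendritic and class II differences were not tested against each other. U87M2 and DBM2 were not separated by any of the 9 members, where 9.35% of all genes passed. U118 was above U87M2 for 8 members (31% of all genes differed) and above DBM2 for 8 (26.7%). SF295 was above DBM2 for 7 (31.8%) and above U87M2 for 5 (36.2%). U251M2 was above DBM2 for 5 members, where 4.29% of all genes differed. U251M2 differed from SF295 for 2 members (40.1%) and from U118 for 3 (35.1%).

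U251M2 and U87M2 differed in 4 class II members and in 4 macrophage genes. H2-Aa was higher in U251M2 by 1.30 (SE 0.23, adjusted p = 0.000699), Cd74 by 1.25 (SE 0.22, adjusted p = 0.000477), H2-Ab1 by 1.08 (adjusted p = 0.00812) and H2-Eb1 by 1.01 (adjusted p = 0.014), so 4 of 9 members passed where 5.56% of all genes did. H2-DMa (0.40, adjusted p = 0.304) and Ciita (0.33, adjusted p = 0.408) did not pass. Of the 16 macrophage and monocyte genes measured, 1 was higher in U251M2 and 3 were lower. Mertk, a receptor for the uptake of dying cells, was higher by 0.80 (adjusted p = 0.00263), and Mrc1, the mannose receptor, fell by 1.499 (adjusted p = 0.000205), C1qc fell by 0.65 (adjusted p = 0.0151) and Cd68 fell by 0.48 (adjusted p = 0.046) in U251M2 relative to U87M2. Itgax, the CD11c integrin chain, was higher in U251M2 by 1.497 (adjusted p = 7.86e-05). It was the 1 gene called among 9 listed for the second type of conventional dendritic cell. Of those 9, 4 had the higher mean in U87M2, with 0 called. Averaged per array, the 16 macrophage genes lay between 8.49 and 8.66 in U251M2 and between 8.70 and 8.77 in U87M2, while the 5 class II genes lay between 9.44 and 9.76 in U251M2 and between 8.49 and 8.59 in U87M2; the difference between the lists was not tested.

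The remaining genes of the class II pathway were counted in lists, beside 54.3% of all genes that differed between vehicle lines. Of 4 other class II chains, 2 differed between vehicle lines: H2-Ea, the alpha chain of I-E, spanned 1.84 with means of 11.59 in SF295 and 9.74 in U87M2 (adjusted p = 7.88e-07), and H2-Ob, a chain that restrains H2-DM, spanned 0.43 (adjusted p = 0.0164). Of 9 genes of processing and turnover, 8 differed, led by Ctss, the protease that trims Cd74, at 11.15 in SF295 and 9.73 in U87M2 (adjusted p = 1.37e-08), and by Ifi30, the lysosomal thiol reductase, at 10.26 in SF295 and 8.32 in DBM2 (adjusted p = 2.4e-07). The factors that bind class II promoters moved little: 3 of 7 differed, with a median span of 0.30. Rfxap was highest in U87M2 (7.45) and lowest in SF295 (7.10, adjusted p = 0.00227). Nfyc and Nfya were highest in SF295 and lowest in DBM2 (adjusted p = 0.00629 and 0.0211). Rfx5 and Rfxank were not called (adjusted p = 0.224 and 0.54). Of 13 interferon gamma response genes, 11 differed, and Ifng itself did not pass, at 6.24 to 6.47 in the 5 lines (adjusted p = 0.369). Cxcl9, a chemokine induced by interferon gamma, averaged 9.15 in U118 and 6.76 in U87M2 (adjusted p = 0.000171).

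Markers of other antigen-presenting cells also differed between vehicle lines, where 54.3% of all genes did. Of all 19938 genes, 4175 were highest in SF295 and 2714 in U118. All 16 macrophage and monocyte genes passed, 12 of them highest in SF295, with Adgre1, a macrophage surface marker, at 9.98 in U118, 9.97 in SF295 and 8.27 in DBM2 (adjusted p = 1.2e-11). Of 9 genes of the second type of conventional dendritic cell, 8 passed and 6 were highest in U118, led by Cd209a, a lectin, at 9.46 in U118 and 6.55 in DBM2 (adjusted p = 1.81e-09). Of 11 genes of the first type, which include Clec9a and Xcr1, 8 passed, and the factor Batf3 did not, at 6.47 to 6.81 (adjusted p = 0.158). Of 7 B cell genes 2 passed, Blk and Cd79a, and the mean of the list lay between 5.45 and 5.85 on the vehicle arrays. Levels differed between its probe sets: Cd79a lay between 3.65 and 4.56 and Ms4a1 between 4.10 and 4.76 on the 28 arrays, while Cd79b had line means of 6.64 to 6.87.

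Treatment with V-4084 raised no member by this test on average over the 5 lines. The average of the line differences was positive for 9 of 9 members, with a median of 0.25 against -0.01 for all genes, yet 0 of 9 passed the adjusted threshold in limma, where 14 of 19938 genes (0.0702%) did, 0.0502% higher and 0.0201% lower; 6 of 9 members and 1923 of all genes had an unadjusted p under 0.05. H2-Aa averaged 9.99 in V-4084 tumours and 9.59 in vehicle tumours, a difference of 0.40 (SE 0.11, 95% interval 0.18 to 0.63, adjusted p = 0.17), and was higher in 4 of 5 lines. Clec9a averaged 5.69 in V-4084 tumours and 5.34 in vehicle tumours, a difference of 0.35 (SE 0.09, adjusted p = 0.133), and was higher in 3 of 5 lines. Both intervals lay above 0, but neither gene passed the adjustment. Xcr1 differed by 0.18 and H2-DMa by 0.27, and both were higher in 5 of 5 lines, as were 3.28% of all genes. Flt3 differed by 0.04 (95% interval -0.08 to 0.16) and Ciita by 0.10 (95% interval -0.09 to 0.28); without the U87M2 line Flt3 differed by -0.03.

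Exact permutation of the treatments within lines, over all 800000 regroupings, gave two-sided unadjusted p-values of 0.00451 for Xcr1, 0.00611 for H2-Aa, 0.00874 for Clec9a, 0.0148 for H2-DMa, 0.0477 for Cd74, 0.0535 for H2-Eb1, 0.0973 for H2-Ab1, 0.378 for Ciita and 0.576 for Flt3, one test for each of the 9 members. These single tests do not carry the adjustment over all genes given above. The 4 arrays highest in muscle or keratinocyte genes moved the average. Without them the difference was 0.27 for H2-Aa (adjusted p = 0.18), 0.14 for Cd74 and 0.11 for H2-Ab1. With the muscle mean as a covariate on all 28 arrays it was 0.40 for H2-Aa (adjusted p = 0.184), 0.25 for Cd74 and 0.24 for H2-Ab1. After rounding, these equal the differences without the covariate. The cause of the shift without the 4 arrays was not tested. Without the U251M2 line, Clec9a passed at a difference of 0.45 (adjusted p = 0.0433).

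**Figure D2:**
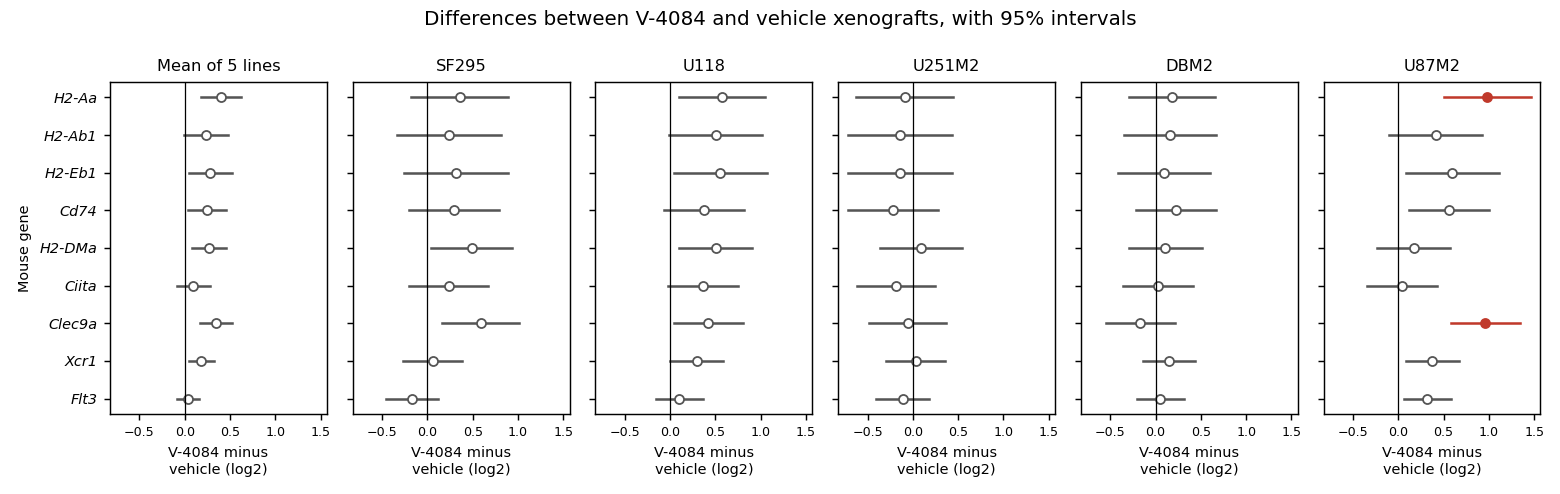
V-4084 minus vehicle (log2) for each member, as the mean of 5 lines and in each line, with 95% intervals from the limma fit; filled red points passed an adjusted p under 0.05. The passing points are H2-Aa and Clec9a in U87M2, and the members of U251M2 centre near 0.

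U87M2 was the line in which members passed. H2-Aa and Clec9a were higher with V-4084, 2 of 9 members, where 3.72% of all genes passed (2.49% upward and 1.22% downward), and the arrays of the treatments did not overlap for 7 of 9 members, all higher with V-4084, where that held for 10.1% of all genes. H2-Aa had 9.59, 9.39 and 9.29 in V-4084 tumours, against 8.37, 8.61 and 8.33 in vehicle tumours. The V-4084 arrays lay above every vehicle array, by 1.98-fold on average (difference 0.98, SE 0.23, 95% interval 0.51 to 1.46, adjusted p = 0.0143), though still below every U118 and SF295 array. Without U87M2 V-4084 repeat 1, vehicle repeat 1 or vehicle repeat 3 the adjusted p of H2-Aa was 0.0796, 0.0613 and 0.0679, at differences of 0.90, 0.95 and 0.93.

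Clec9a had 6.23, 5.74 and 5.76 in V-4084 tumours of U87M2, against 4.52, 5.15 and 5.17 in vehicle tumours. The groups did not overlap, and the difference was 0.96 (1.95-fold, SE 0.18, 95% interval 0.58 to 1.34, adjusted p = 0.00275); it passed under 40 of 40 other settings. Vehicle repeat 1 was the lowest of the 28 arrays, and without it the difference was 0.75 (adjusted p = 0.0343). All 6 values were below 6.49, the median of all gene values.

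The other members of U87M2 were not called. H2-Eb1 had 9.23, 9.06 and 9.09 in V-4084 tumours and 8.63, 8.55 and 8.40 in vehicle tumours (difference 0.60, SE 0.25, adjusted p = 0.224). Cd74 had 10.67, 10.38 and 10.17 in V-4084 tumours and 9.92, 9.80 and 9.82 in vehicle tumours (difference 0.56, SE 0.22, adjusted p = 0.177). Neither gene's arrays overlapped between the treatments. Fitted on the U87M2 arrays alone, the adjusted p was 0.00848 for H2-Eb1 and 0.0315 for Cd74. Without the 4 arrays highest in muscle or keratinocyte genes it was 0.0328 for H2-Eb1 and 0.0514 for Cd74. None of those 4 arrays is of U87M2, so both settings left the differences as they were and changed only the estimate of spread and the adjustment. Xcr1 had 6.68, 6.62 and 6.55 in V-4084 tumours and 6.15, 6.19 and 6.37 in vehicle tumours (difference 0.38, adjusted p = 0.163), and Flt3 had 6.92, 6.65 and 6.72 in V-4084 tumours and 6.43, 6.48 and 6.42 in vehicle tumours (difference 0.32, adjusted p = 0.19). H2-DMa and Ciita overlapped between the treatments, with differences of 0.17 and 0.04. The shared H2-DMb probe set differed by 0.30 (adjusted p = 0.521).

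Genes of the macrophage and antigen-presentation lists were also called in U87M2, most list genes not being called. Of 16 macrophage and monocyte genes 6 were called higher with V-4084 and 1 lower: Ms4a7 averaged 9.16 in V-4084 and 8.19 in vehicle tumours (adjusted p = 6.75e-05), Mertk 7.82 in V-4084 and 6.72 in vehicle tumours (adjusted p = 0.000176), C1qa, a complement chain made by macrophages, 10.34 in V-4084 and 9.70 in vehicle tumours (adjusted p = 0.00906), and Adgre1 9.24 in V-4084 and 8.79 in vehicle tumours (adjusted p = 0.0182). The gene called lower was Ccr2, a chemokine receptor of blood-derived monocytes, named after its value was seen, at 6.61 in V-4084 and 7.49 in vehicle tumours (adjusted p = 0.0231). H2-Ea, 1 of 4 other class II chains, averaged 10.70 in V-4084 and 9.74 in vehicle tumours (difference 0.96, adjusted p = 0.0176). The co-stimulatory ligands Cd80 and Cd86, 2 of 6 in their list, were higher by 0.60 and 0.77 (adjusted p = 0.0068 and 0.012). The interferon gamma receptor chains Ifngr1 and Ifngr2, 2 of 13 in theirs, were higher by 0.91 and 0.41 (adjusted p = 0.000176 and 0.0113), and Itgae, the CD103 chain carried by some dendritic and T cells, by 0.64 (adjusted p = 0.00523). Itgae belongs to the list of 11 genes that also holds Clec9a and Xcr1. In that list Batf3 (6.63, 6.77 and 6.75 with V-4084, 6.86, 6.73 and 6.85 with vehicle) and Irf8 (8.62, 8.41 and 8.29, against 8.23, 8.215 and 8.52) overlapped. The mean of all 11, Clec9a among them, was 7.03 to 7.18 with V-4084 and 6.76 to 6.90 with vehicle.

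Other lists held few or no called genes, where 3.72% of all genes passed, so a count of 0 in lists this short is near that share. None of the 7 promoter factors, 7 B cell genes, 13 T and natural killer cell genes or 9 mature dendritic cell genes was called in U87M2, and of 9 genes of the second type of dendritic cell only Cd7 was (0.53, adjusted p = 0.0268). Fibroblast genes had a median difference of 0.44 with 0 of 8 called, and muscle genes a median of -0.78 with 0 of 10 called. The muscle mean was 6.51 to 6.78 in V-4084 tumours and 6.76 to 7.90 in vehicle tumours of U87M2; with that mean as a covariate, H2-Aa differed by 1.00 (adjusted p = 0.0161) and Clec9a by 0.97 (adjusted p = 0.00363). The macrophage mean was 8.79 to 9.28 in V-4084 tumours and 8.70 to 8.77 in vehicle tumours, and its part in the class II difference was not tested.

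No member passed in the other lines, where few genes did: 0.01% in SF295 and 0.01% in U118, each all higher, 0% in DBM2, and 0.0401% in U251M2, 0.0251% higher and 0.015% lower. At an unadjusted p under 0.05 there were 2 members in SF295, 5 in U118 and 0 in DBM2 and U251M2. Of all 19938 genes, 1341 were under it in SF295, 1355 in U118, 458 in DBM2 and 2670 in U251M2. In U118, H2-Aa had 10.999, 10.88 and 11.25 in V-4084 tumours and 10.93, 9.73 and 10.76 in vehicle tumours (difference 0.57, SE 0.23, adjusted p = 0.67). A single vehicle array moved that difference: without repeat 2, the array with the highest muscle value of the vehicle tumours, it was 0.20 (adjusted p = 1), and that of Cd74 was 0.07 in place of 0.37. Macrophage genes on the same array averaged 9.49, within the 9.46 to 9.64 of the U118 vehicle group. H2-Ab1 and H2-Eb1, 2 of 9 members, did not overlap in U118 and were higher with V-4084, where 7.6% of all genes did so.

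In SF295, H2-Aa had 11.56, 10.91 and 10.50 in V-4084 tumours and 10.53 and 10.74 in vehicle tumours (difference 0.36, SE 0.26, adjusted p = 0.8). The V-4084 arrays enclosed both vehicle arrays, and V-4084 repeat 1, highest in keratinocyte genes, was the highest of all 28 arrays; without it the difference was 0.07 (adjusted p = 0.968). Clec9a had 6.05, 5.56 and 5.53 in V-4084 tumours and 4.97 and 5.28 in vehicle tumours, without overlap (difference 0.59, SE 0.21, adjusted p = 0.722), the 1 member of 9 that did not overlap, where 5.71% of all genes were higher in that way.

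In DBM2, H2-Aa had 8.78, 8.95 and 8.78 in V-4084 tumours and 8.42, 8.85 and 8.70 in vehicle tumours (difference 0.18, 95% interval -0.30 to 0.66). In U251M2 it had 9.47 and 9.83 in V-4084 tumours and 9.62, 9.98 and 9.62 in vehicle tumours (difference -0.09, 95% interval -0.62 to 0.44). The groups overlapped in both lines. Clec9a in DBM2 had 4.89, 4.98 and 5.01 in V-4084 tumours, below 5.04, 5.26 and 5.09 in vehicle tumours (difference -0.17, SE 0.18, adjusted p = 1), 1 of 9 members with lower arrays that did not overlap, where 2.41% of all genes were; no member was higher in that way, where 5.03% of all genes were. Cd74 and Ciita in U251M2, 2 of 9 members, had lower V-4084 arrays without overlap, as did 22% of all genes. In U251M2 7 of 9 differences were negative, none of them called, and the median of all genes there was -0.04.

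Whether the V-4084 differences themselves differed between lines was tested by interaction. No member passed (0 of 9, where 68 genes or 0.341% did): Clec9a had an adjusted p of 0.13 (unadjusted 0.00151), H2-Aa 0.408 (unadjusted 0.0458), and the other 7 members between 0.497 and 0.739. The V-4084 differences of H2-Aa and Clec9a in U87M2 were thus not shown to differ from those in the other lines.

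**Figure D3:**
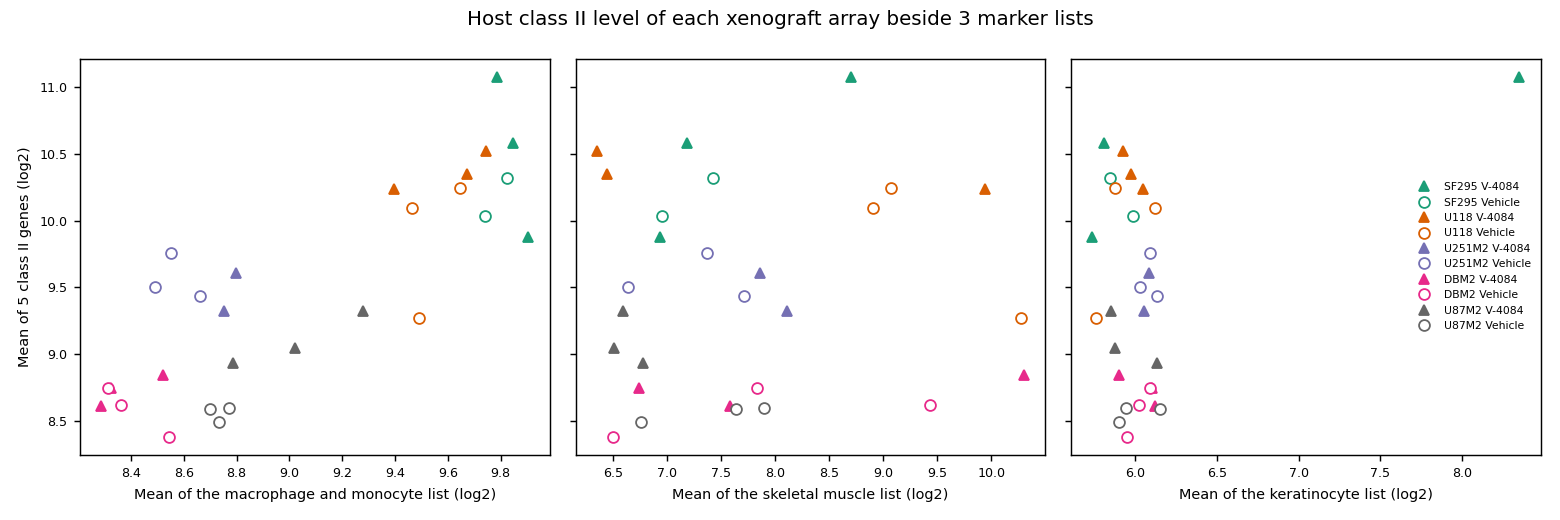
Mean of H2-Aa, H2-Ab1, H2-Eb1, Cd74 and H2-DMa (log2) on each mouse array, against the mean of the macrophage and monocyte, skeletal muscle and keratinocyte lists; triangles are V-4084 and open circles vehicle, coloured by line. U118 vehicle repeat 2 has a class II mean of 9.27 at a muscle mean of 10.27, and SF295 V-4084 repeat 1 has 11.08 at a keratinocyte mean of 8.35. DBM2 V-4084 repeat 2 has 8.84, the highest of its group, at a muscle mean of 10.30, and U118 V-4084 repeat 2 has 10.24, the lowest of its group, at 9.94.

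Correlations within groups were highest among the class II genes. After group means were subtracted, the 15 pairs among H2-Aa, H2-Ab1, H2-Eb1, Cd74, H2-DMa and Ciita correlated at r = 0.75 to 0.96 over 28 arrays, and at 0.64 to 0.92 over the 24 arrays kept. Clec9a, Xcr1 and Flt3 correlated with each other at 0.51 to 0.52, but at -0.04 to 0.43 over the 24 arrays. The class II genes correlated with the dendritic genes at 0.40 to 0.81 (median 0.61), and at -0.34 to 0.68 over the 24 arrays. The arrays share RNA, normalisation and tissue mix, so these values describe the arrays and carry no test.

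The genes most like each member were taken by r over the 28 arrays. Nearest to H2-Aa were H2-Ea (0.97), Plbd1 (0.96), Il10ra (0.94), AW112010 (0.94), Rnase6 (0.94) and H2-M3 (0.94), and within groups H2-Ea (0.89), Itgax (0.86), Slamf8 (0.85), Cd40 (0.84), Trerf1 and Prkcd (0.82 each). Nearest to Cd74 were H2-Ea (0.94), Gmip (0.92), Psap (0.91), Myo1f, Slamf8 and Plbd1 (0.90 each), and within groups Fgd2 and Sh3bp1 (0.88 each), Trafd1 and Efhd2 (0.85 each), H2-Ea and Plbd1 (0.82 each). H2-Ea and Plbd1 stood on several of these lists. Nearest to Clec9a were Vcam1 (0.90), Gbp4 (0.89), Tut4, Klk1b22 and Gpr141b (0.88 each) and Gm4951 (0.87), and within groups Ehmt1 (0.83), Rnf166, Trmt2a (0.80 each), Trim26 (0.79), Mdfic (0.78) and Axin1 (0.77). Nearest to Flt3 were 4930523C07Rik and Rnf144b (0.85 each), Septin3 (0.84), Itgae (0.83), Gcsam and Il16 (0.82 each), and within groups Rassf5, H2-K2 (0.79 each), Psap, Sh3bp1 (0.78 each), Rhoh and Trmt112 (0.77 each).

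The human arrays read human class II genes, and the lines ranked differently there. They are labelled cultured cells but carry the treatments of the xenografts, so whether their RNA came from cultures or from tumours is not settled, nor is what a V-4084 difference on them measures. Of 14 human orthologues and related genes listed 11 were measured, and 8 differed between vehicle lines, where 58.4% of all human genes did. HLA-DRB5, a DR beta chain whose probe set may also read near-identical DRB copies, had 9.80, 9.86 and 9.95 in U87M2 vehicle arrays, 8.93 and 9.31 in SF295, 5.11, 4.69 and 5.09 in U118, 4.84, 5.10 and 4.75 in U251M2, and 4.70, 4.43 and 4.93 in DBM2 (adjusted p = 2.06e-21). U87M2 and SF295 were high and the other 3 lines low without overlap. HLA-DPA1, the alpha chain of DP, averaged 11.27 in SF295, 11.03 in U87M2, 7.76 in DBM2, 6.73 in U118 and 5.66 in U251M2 (adjusted p = 1.47e-20).

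U87M2, with the highest human HLA-DRB5 and CIITA (7.18, against 6.03 to 6.68 in the other lines), had the lowest host H2-Aa and Cd74, and U118, with low human class II, had high host class II. SF295 was high on both arrays, and DBM2 was low on both for HLA-DRB5 (4.69) and H2-Aa (8.66), so the lines followed no single relation. CLEC9A, XCR1 and FLT3 were not called between lines on the human arrays, with means of 4.37 to 4.53, 5.91 to 6.34 and 4.82 to 4.98. The human arrays titled DBM2 with V-4084 carry the cell line label SF295 and were placed by title; their HLA-DRB5 values of 4.79, 5.27 and 5.01 lay near the DBM2 vehicle arrays and far below the SF295 arrays.

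**Figure D4:**
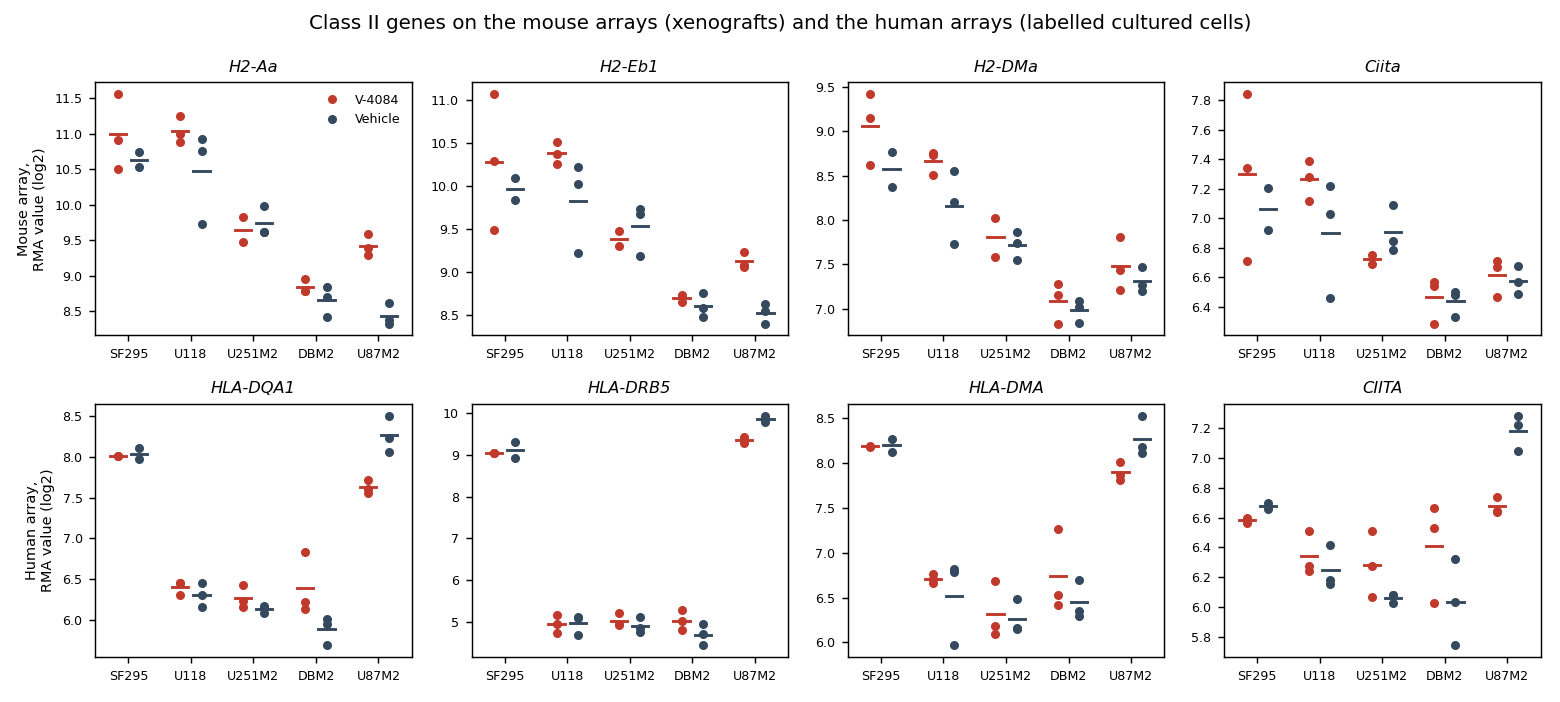
RMA values (log2) of 4 host class II genes on the mouse arrays (top) and of a human counterpart of each on the human arrays labelled cultured cells (bottom), by line, with V-4084 in red at the left and vehicle in dark at the right; points are arrays and bars group means, and the vertical axes differ. Among vehicle groups U87M2 is lowest for host H2-Aa and highest for human HLA-DRB5, and its V-4084 arrays lie above the vehicle arrays for H2-Aa and below them for HLA-DRB5.

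With V-4084, several human class II genes fell in U87M2, the line in which host H2-Aa rose. Of the 11 human genes 5 were called lower and 0 higher, where 15% of all human genes were called, 9.62% lower and 5.37% higher. HLA-DQA1 had 7.72, 7.61 and 7.56 in V-4084 arrays, against 8.06, 8.51 and 8.23 in vehicle arrays (difference -0.64, SE 0.15, adjusted p = 0.00275). HLA-DQB1 had 5.27, 4.99 and 5.00 in V-4084 arrays, against 5.74, 6.34 and 5.92 in vehicle arrays (difference -0.91, SE 0.19, adjusted p = 0.000982). Neither gene's groups overlapped.

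HLA-DRB5 had 9.34, 9.30 and 9.43 in V-4084 arrays, against 9.80, 9.86 and 9.95 in vehicle arrays (difference -0.51, adjusted p = 0.0213). CIITA fell by 0.51 (adjusted p = 0.0192) and HLA-DMB by 0.47 (adjusted p = 0.0448), while HLA-DMA differed by -0.38 (adjusted p = 0.257). Leaving out any 1 U87M2 array left 3 of the 11 called, while HLA-DQA1 and HLA-DQB1 passed in every setting run. No human orthologue was called on average over the 5 lines, where 11.6% of human genes were. None was called in another line either, but there few human genes were: 0.755% in U118 and 0% in SF295, DBM2 and U251M2. The opposite signs on the arrays of the host and of the tumour line were not tested against each other.

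Class II promoters carry the X box, bound by the RFX complex, and the Y box, bound by NF-Y, at a fixed spacing, and CIITA acts through both. Mouse promoters were not analysed here. RefSeq promoters of the human orthologues (GRCh38.p14, 250 bases before to 50 after the gene start) were matched for 9 of the 11 measured genes and searched on both strands for ACNGATG, part of the X box, and CTGATTGG, the Y box; in the stretches shown the motifs do not overlap, and the letters were chosen with class II promoters known. The X box letters were found in 4 of the 9 and in 7.65% of all 35116 promoters, the Y box in 3 of the 9 and in 3.97%, and both in 3 of the 9 and in 0.29%. The stretches of those 3 genes are shown 5′ to 3′ on the minus strand with both motifs in capitals, because HLA-DRB5 and HLA-DQB1 were among the genes that fell with V-4084 in U87M2 and HLA-DMA was not called. Carrying the motifs did not follow the V-4084 calls: HLA-DQA1, which fell, had neither in this window, and HLA-DMB, which fell, had the X box letters only.
HLA-DRB5, chr6:32530361-32530418: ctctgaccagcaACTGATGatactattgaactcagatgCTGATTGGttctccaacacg
HLA-DQB1, chr6:32666729-32666786: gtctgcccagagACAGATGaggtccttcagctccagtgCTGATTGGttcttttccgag
HLA-DMA, chr6:32953160-32953218: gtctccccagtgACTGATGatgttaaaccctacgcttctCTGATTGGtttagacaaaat
The motifs lay 19 bases apart in HLA-DRB5 and HLA-DQB1 and 20 bases apart in HLA-DMA, and a match says only that these letters are in this window.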

How the data were processed

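RNA (200 ng a sample) was read on 28 mouse and 28 human whole-transcript arrays. The authors deposited log2 values made with Partek and RMA, per the submitters' processing notes; the sources used here give no versions or background settings. No value column was left unused. Each platform was fitted alone, with 10 group means (18 residual degrees of freedom), in limma 3.58.1 (R 4.3.3). One probe set naming only that gene, the one with the highest mean, stood for a gene, giving 19938 mouse and 18417 human genes. Benjamini-Hochberg adjustment ran over all genes of a contrast, and calls are at an adjusted p under 0.05. Arrays were grouped by title. The members and all gene lists were chosen with earlier results of these data known. Genes of the pathway lists were named from among the 4 with the smallest p, and not all 4 are always named. Genes of the cell type lists and Rfx5, Rfxank, Ifng and Flt3l were named after their values were seen. The script was tested on simulated data. Samples with the same repeat number did not deviate together (r over 0.1 in 3 of 13 pairs), so no pairing was used. Settings tried were probe set averaging, eBayes with trend, array weights, renormalisation, median centring, a filter on dim genes, fits on the compared groups, blocks, left-out arrays and lines, and exact permutation; 4 more were added after seeing the data. Gene symbols come from the platform annotation, and some listed genes were not analysed here.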

Additional observations from a re-analysis of the deposited data

Results flagged for a closer look

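Some genes of the lists differed between lines in their V-4084 difference by limma's interaction test, while no member did. They were 2 of 16 macrophage and monocyte genes, 1 of 6 co-stimulation genes and 1 of 13 interferon gamma response genes. The other lists held 0, and 0.341% of all genes passed. Ms4a7, a macrophage gene, had F = 10.79 (adjusted p = 0.0183), Cd80 F = 10.28 (adjusted p = 0.0238), Mertk F = 9.96 (adjusted p = 0.0254) and Ifngr1 F = 9.47 (adjusted p = 0.0325). In U87M2, Ms4a7 had 9.30, 9.20 and 8.99 in V-4084 tumours, against 8.04, 8.47 and 8.07 in vehicle tumours. Mertk there had 8.34, 7.68 and 7.44 in V-4084 tumours, against 6.46, 6.88 and 6.81 in vehicle tumours. Ifngr1 had 9.18, 8.90 and 8.64 in V-4084 tumours, against 7.73, 8.16 and 8.11 in vehicle tumours. Cd80 in U87M2 had 6.35, 6.51 and 6.42 in V-4084 tumours, against 5.69, 6.08 and 5.72 in vehicle tumours. In U118 its V-4084 arrays (6.89, 7.07 and 7.02) lay below its vehicle arrays (7.58, 7.44 and 7.23). None of these genes was called in a line other than U87M2. Groups of 2 or 3 arrays are too small for a test of single outlying arrays.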

How the results depend on the processing

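Counts of called members mostly kept within 1.5 times the reported value. The vehicle-line count of 9 lay between 8 and 9 in all settings. In most of them it was 8 because Ciita was lost, as with the repeat number as a block (adjusted p = 0.0585). Without the line U118, Clec9a was lost. The line-pair count of 44 lay between 40 and 55. The counts for the average, the interaction and the lines SF295, U118, DBM2 and U251M2 were 0, except that the average gave 1 (Clec9a) without the line U251M2. In U87M2 the count of 2 was 4 with only the groups compared and 4 without the 4 arrays highest in muscle or keratinocyte genes, and lay between 1 and 3 with 1 array left out. Human orthologues called between vehicle lines numbered 7 or 8. Those called in U87M2 numbered 9 with array weights and 8 with only the groups compared, and lay between 3 and 5 with 1 array left out. With the repeat number as a replicate block, the counts were 0 for the average and 2 in U87M2, and with line and repeat pairs as the block again 0 and 2; the numbers do not pair the samples. No called value changed sign. Dim signal limits Clec9a most, and 2 or 3 arrays a group limit every interval.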

Other observations

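Ligands and receptors of dendritic and myeloid growth factors differed between vehicle tumours for 7 of 9 genes, where 54.3% of all genes did. Csf1r, the receptor of macrophage colony stimulating factor, averaged 10.61 in SF295, 10.10 in U118, 9.58 in U251M2, 9.47 in U87M2 and 8.84 in DBM2 (adjusted p = 1.05e-08). Flt3l, the ligand of Flt3, was not called, at 6.68 in SF295 and 6.36 in DBM2 (adjusted p = 0.0743). Csf2rb and Csf1r were higher with V-4084 in U87M2, by 0.58 and 0.52 (adjusted p = 0.02 and 0.0213). Of 8 plasmacytoid dendritic cell genes 3 differed between vehicle lines, a smaller share than over all genes, and Siglech did not pass (adjusted p = 0.0595). Cd3g, a T cell receptor subunit, had 7.27 in SF295 V-4084 repeat 1 and 7.54 in U118 V-4084 repeat 2, against 4.47 to 5.80 on the other 26 arrays; both are among the 4 arrays highest in keratinocyte or muscle genes.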
